A study of Rattus norvegicus with 4 samples.

Results

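The array collected on day 0 gave the transcriptome of the rat lens capsule at the moment the lens had just been removed from it. RNA of lens capsules with lens epithelial cells (LECs) from female albino SD rats was hybridized to Affymetrix rat expression arrays. All animals had extracapsular clear lens extraction (ECLE), a model of cataract surgery, at 7 weeks of age. Capsules were taken directly after surgery (day 0, age 7 weeks, 1 array), 1 week later (1 W, age 8 weeks, 2 arrays labeled as biological replicates) and 2 weeks later (2 W, age 9 weeks, 1 array). The study followed gene expression during posterior capsule opacification (PCO), the regrowth of LECs in the emptied capsule. No array came from an eye without surgery, and the sources used here do not give the number of capsules behind an array. The methods describe more samples per time point than there are arrays here.

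The 4 arrays shared 31042 probe sets that were not controls. Of these, 20826 carried 1 gene symbol, 436 carried several symbols and 9780 carried none. The day 0 array was taken alone, the probe sets with 1 symbol were ranked by intensity within it, and the brightest probe set was kept for each symbol, which left 14217 genes. The percentile of a gene was the percentage of the other genes that were dimmer on the same array. It does not depend on how the arrays were scaled against each other. The intensity of a probe set also depends on how well its probes bind, so a percentile describes the signal of that probe set and not a number of transcripts. Because 1 array has no replicate, no test was possible at day 0, and every value is a description of that array.

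The lens is a closed epithelial body. A single layer of epithelium lies under the anterior capsule, its cells divide near the equator, and the daughter cells elongate into fibers that lose their organelles and fill with crystallins, the soluble proteins that refract light. The capsule around them is a thick basement membrane of type IV collagen, laminin, nidogen and perlecan, which the epithelium itself secretes. After extracapsular surgery the capsule and the epithelium attached to it stay in the eye, and these cells are the source of PCO.

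The genes given as markers of lens epithelium and capsule were all in the brightest 1% of the day 0 array, which held 142 genes. Cryba1, a beta crystallin, had an intensity of 11739 and ranked 2 of 14217. Col4a1, the alpha 1 chain of type IV collagen, had 11634 and ranked 4. Cryab and Cryaa, the alpha crystallins that also act as chaperones, had 9229 and 7430.3, at ranks 19 and 38. Cdh1, E-cadherin of epithelial junctions, had 6852 and ranked 47. Pax6, the transcription factor that specifies the eye, had 4029 and ranked 140. The label of the sample as LECs on their capsule therefore stood beside high signals of epithelium, capsule and crystallin genes alike. These are 6 genes chosen to mark this tissue, so their place at the top is a check of the label.

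The promoters of Cryba1, the brightest crystallin, of Crygs, the brightest gamma crystallin, and of Col4a1 are shown because these genes were near the top of the array. Each sequence is the 250 bases before the transcription start from RefSeq on build GRCr8, read 5′ to 3′ on the strand of the gene. Capitals mark TATAAA, a form of the TATA box, and TGCTGA, the core of the element that Maf proteins bind, on either strand. Cryba1 lay at chr10:63112818-63113067 on the minus strand, Crygs (gamma S crystallin) at chr11:91711505-91711754 on the plus strand and Col4a1 at chr16:84885347-84885596 on the plus strand. The tables used here gave no entry for Cryab.
Cryba1: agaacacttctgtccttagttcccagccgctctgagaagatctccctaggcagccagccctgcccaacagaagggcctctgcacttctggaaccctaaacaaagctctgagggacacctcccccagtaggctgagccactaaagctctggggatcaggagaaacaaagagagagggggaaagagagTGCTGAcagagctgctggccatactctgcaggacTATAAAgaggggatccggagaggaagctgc
Crygs: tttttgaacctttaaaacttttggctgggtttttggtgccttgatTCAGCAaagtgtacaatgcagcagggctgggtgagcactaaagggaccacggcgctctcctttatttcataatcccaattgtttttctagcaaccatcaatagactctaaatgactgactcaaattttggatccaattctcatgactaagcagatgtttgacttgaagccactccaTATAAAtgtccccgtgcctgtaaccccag
Col4a1: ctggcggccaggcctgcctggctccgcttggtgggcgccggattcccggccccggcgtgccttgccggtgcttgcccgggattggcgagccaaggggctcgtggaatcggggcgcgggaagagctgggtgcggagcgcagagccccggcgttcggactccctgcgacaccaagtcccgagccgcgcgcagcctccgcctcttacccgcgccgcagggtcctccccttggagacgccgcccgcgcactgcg

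In Cryba1 the TATA box began 30 bases before the start (position -30) and TGCTGA stood at -64. In Crygs the TATA box stood at -29 and the Maf core was on the opposite strand at -205. The Col4a1 sequence held neither motif. Over the 15 promoters listed for 13 of the 14 crystallins measured, 8 (53.3%) held TGCTGA on either strand, against 15.1% of all 33469 rat promoters of the same length and 13.3% of those of genes on the array. TATAAA was in 3 of the 15 (20.0%), against 12.9% of all promoters and 8.03% of those on the array. Only these exact letters were counted, so the shares are not those of all TATA boxes. The Crygd promoter, for example, held TATATATA near the start but not TATAAA. None of the 15 held GGGCGG, the GC box, which 30.5% of all promoters and 52.3% of those on the array held. Of the 16 promoters of capsule basement membrane genes, 10 (62.5%) held the GC box, 3 (18.75%) held TGCTGA and none held TATAAA. The difference between these groups was not tested. The 1316 promoters of the brightest decile as a whole held the GC box in 63.0%, TGCTGA in 12.4% and TATAAA in 8.66%. The motifs were chosen after the ranks were known, the letters of TGCTGA can overlap those of an AP-1 element, and a match is a run of letters that says nothing of binding.

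Signal was spread over a wide range. Gene intensities ran from 0.0234 to 12178 with a median of 121, and the 90th percentile lay at 805. The brightest 1% of genes held 17.9% of the summed intensity of all genes, and the brightest decile held 57.2%. To find the level of genes that a lens capsule is not known to use, 63 genes were read on the same array, of which 36 serve other organs (liver, pancreas, testis, pituitary and others) and 27 are olfactory, vomeronasal or taste receptors. They had a median percentile of 7.82, and the 90% point of their percentiles was 23.5. The brightest of them, Gapdhs of sperm, reached 64.9 at percentile 38.0. Of all genes, 62.0% (8808) were brighter than every one of these 63, and this limit is called the reference limit here. It was set after the values were seen. Gapdhs alone sets it, so a gene below the limit can still be brighter than most of the 63. The 3 control sets for bacterial genes gave 0.885 to 5.81, and 9.07% of genes were dimmer than the highest of them.

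**Figure D1:**
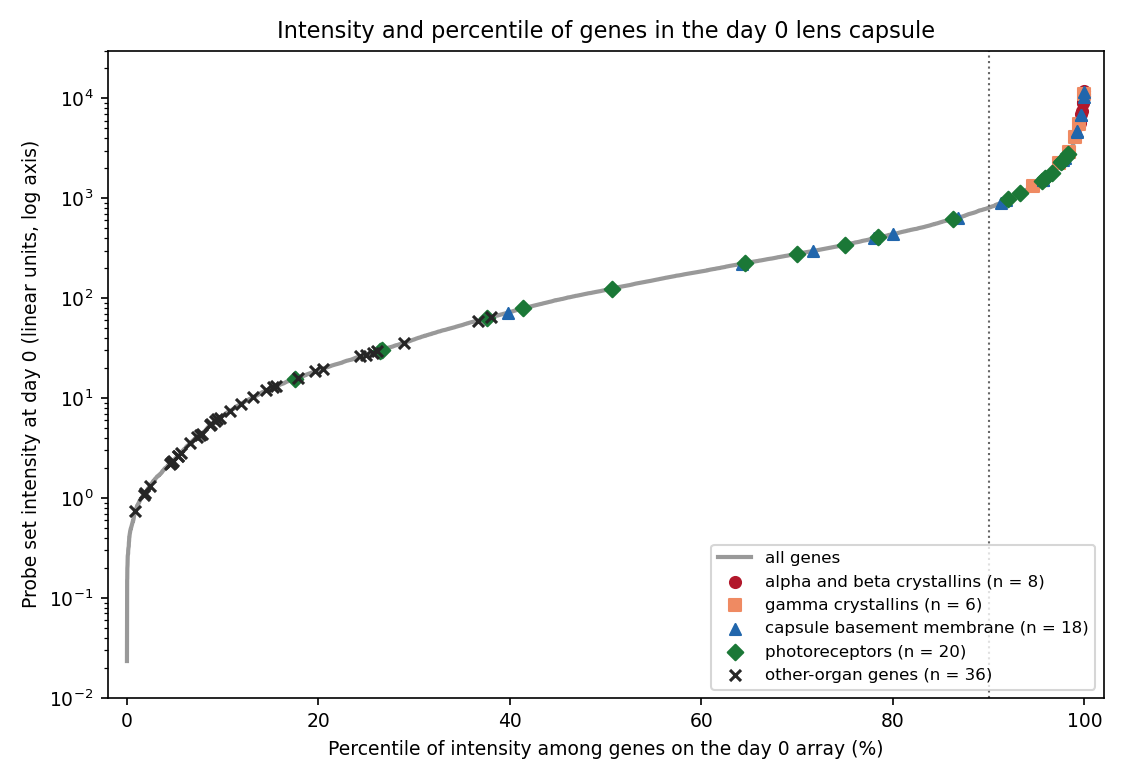
Probe set intensity at day 0 (log axis, linear units) against the percentile of the gene on that array, with the line for all 14217 genes and points for members of 5 gene lists. The dotted line marks the 90th percentile (805), alpha and beta crystallins sit at the right end of the line and the 36 other-organ genes lie at or below percentile 38.0.

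Error could only be read from the pair of arrays at 1 W, as the difference in percentile of the same probe set between them. For the 143 genes at percentile 99 or more at day 0 the median difference was 0.049 points and 90% of genes differed by at most 0.298 points. For the 711 genes between percentiles 90 and 95 the median was 0.760 and the 90% point 2.88. For the 3554 genes below percentile 25 these were 4.34 and 12.3 points. A percentile has less room to move at the top, where a given fold covers fewer points, so these values describe percentiles and not the error of an intensity. Differences of a few points among genes near the median are within the spread of the pair. Rank within an array was similar in all 4 samples, with a Spearman correlation over 14217 genes of 0.949 and 0.961 between day 0 and the 1 W arrays, 0.936 between day 0 and 2 W, and 0.976 within the 1 W pair. The ratio of 3′ to 5′ probe sets of beta-actin, a sign of RNA quality, was 2.32 at day 0 and 1.61 to 1.90 on the others, and that of GAPDH was 1.10 to 1.18 on all 4. Its part in the ranks was not tested. The paper reports high RNA integrity numbers for all its RNA samples.

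**Figure D2:**
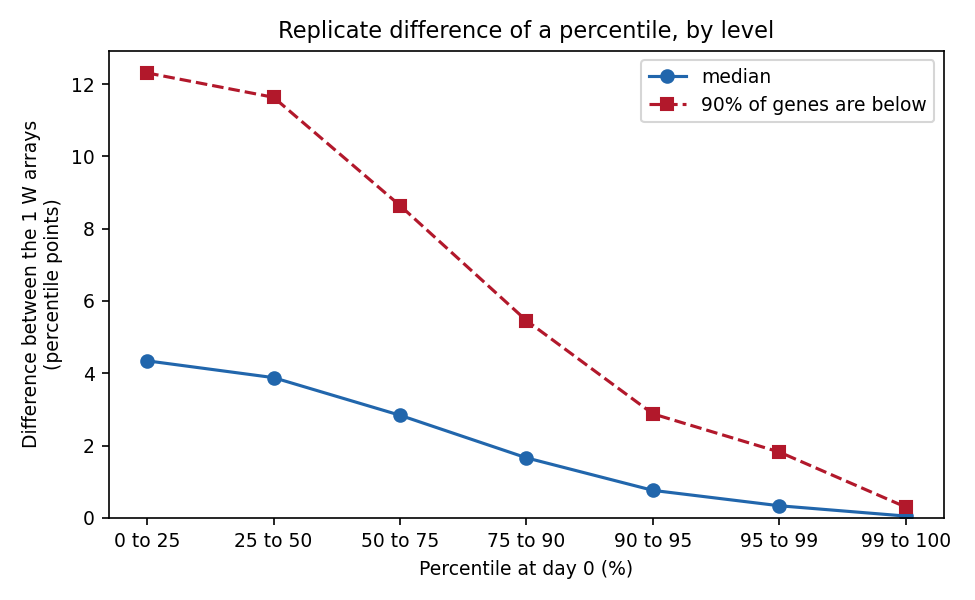
Difference in percentile between the 2 arrays at 1 W (points) for genes grouped by their percentile at day 0, with the median as circles and the value that 90% of genes stay below as squares. The median runs from 4.34 points in the lowest group to 0.049 in the highest.

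Members of the gene lists were counted as bright when they stood at or above the 90th percentile, where by construction 10% of all genes are. The 40 brightest genes were a mixture of lens, matrix and housekeeping genes. COX1, a subunit of cytochrome oxidase that mitochondrial DNA encodes, was the brightest at 12178, and COX2, its partner from the same genome, ranked 3 at 11669. Crystallins were 7 of the 40, and Rps29 and Rps3a of the ribosome were among them too. Cst3 (cystatin C, an inhibitor of cathepsins) ranked 8 at 10919 and Ctsl (cathepsin L) ranked 24 at 8917. Vim (vimentin, the intermediate filament of LECs) ranked 10 at 10522 and Gja1 (connexin 43, the gap junction protein of lens epithelium) ranked 11 at 10507. Among secreted proteins were Spon1 (10237), Sparc (10231), Ptgds (9955, prostaglandin D synthase), Clu (9740.2, clusterin), Igfbp7 (9365) and Efemp1 (8775). Metabolic genes in the 40 were Akr1b1 (8945, aldose reductase), Pgk1 (7639) and Slc2a1 (7375, the glucose transporter GLUT1), with Atp1b3 (8548), a subunit of the sodium pump. The others were Col4a1, Nrep, Tmsb4x, Eef1a1, Crim1, Actg1, Anxa1, App, Hif1a, Mgarp, Ivns1abp, Tsc22d1, Ass1, Btg1 and Grifin, a lens galectin. All 40 were also in the brightest decile on each of the other arrays, and 37, 38 and 34 of them were in the brightest 142 at 1 W replicate 1, 1 W replicate 2 and 2 W.

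Alpha and beta crystallins had the highest median percentile of the 44 lists read, at 99.9. All 8 alpha and beta crystallins measured were at percentile 99.5 or higher, from Crybb1 at 5620 to Cryba1 at 11739. All 6 gamma crystallins with a probe set that carried their symbol alone were in the brightest decile as well. Some of these probe sets have the name suffixes a, s or x and may bind several transcripts. Without such probe sets 4 gamma crystallins were measured, and all 4 were bright. The 14 crystallins together held 1.97% of the summed intensity of all genes. Cryge and Crygf share a probe set with each other and were not ranked. The alpha and beta crystallins were also at percentile 99.5 or higher on the other arrays, and for Cryba1 the intensities were 11739 on day 0, 12876 and 10798 at 1 W and 9087 on the 2 W array.

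The gamma crystallins, most of which are known as proteins of the fiber cell, were unlike each other across arrays. Crygs had 11087 on day 0, 11007 and 9714 at 1 W and 8836 on the 2 W array, and Crygn had 4088, 5740.4, 3792 and 8354. Both therefore stayed near the top of each array. Crygd had 5502 on day 0, 681 and 40.2 at 1 W and 7327 on the 2 W array, and Crygc had 2938, 342, 156 and 7103. Crygb had 2232 on day 0, 39.8 and 0.760 at 1 W and 2781 on the 2 W array. Cryga had 1318 on day 0, 1.48 and 2.41 at 1 W and 23.0 on the 2 W array. For these 4 genes day 0 was above both arrays at 1 W, and in Crygd, Crygc and Crygb the pair at 1 W was itself far apart, at percentiles 89.3 and 32.3 for Crygd. The pair differed by 57.0, 18.6 and 31.0 points for Crygd, Crygc and Crygb. At the day 0 level of Crygd 90% of genes differed by at most 0.298 points. Between percentiles 95 and 99, where Crygc and Crygb lay at day 0, this was 1.82 points. At 1 W these crystallins lay lower, where a percentile has more room to move. In the groups below percentile 90 at day 0 the 90% points were 5.46 to 12.3.

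Genes of the fiber membrane and of the beaded filament, the intermediate filament particular to fibers, ran from percentile 25.02 to 99.9. Of 11 measured, 6 were bright. They were Grifin (9315), Lim2 (4245, a fiber membrane protein), Cdh2 (3718, N-cadherin), Gja3 (2938, connexin 46), Bfsp2 (1312, phakinin) and Mip (941, the fiber water channel). Bfsp1, filensin, the partner of Bfsp2, was just below the threshold at 790.2 (percentile 89.8). Lenep had 415 at percentile 79.0 and Birc7 had 79.8 at percentile 41.5. Tmod1, which caps actin filaments in the fiber membrane skeleton, had 62.2 and Dnase2b, the nuclease that clears fiber nuclei, had 27.4, at percentiles 37.3 and 25.02. The last 2 did not pass the reference limit.

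Of 12 lens epithelium markers 9 were bright, with a median percentile of 97.3. Beside Gja1, Cdh1 and Pax6 these were Dkk3 (5285, a secreted protein related to Wnt inhibitors), Aqp1 (3580, a water channel), Pdgfra (2482, the receptor through which PDGF drives LEC division), Efna5 (1850, an ephrin), Foxe3 (1471, the forkhead factor of the lens epithelium) and Sox2 (1248). Tfap2a had 459 at percentile 80.9, Epha2 had 153 at 55.2 and Six3 had 54.0 at 35.0. Where a gene had several probe sets the choice of the brightest mattered. Gja1 had 3 probe sets, at 10507, 1152 and 11.8, and the other probe set of Cdh1 read 0.390 beside 6852. Dkk3 had 4, at 5285, 181, 83.7 and 3.91. Pax6 and Foxe3 rest on 1 probe set each. Among the 6 markers with 1 probe set, 3 were bright.

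Lens transcription factors were spread more widely, with 6 of 15 bright and a median percentile of 86.3. Maf, which activates crystallin genes, led with 6515, followed by Pax6, Prox1 (2955, needed for fiber elongation), Mab21l1 (2763), Foxe3 and Sox2. Meis2 (760), Pitx3 (619), Tfap2a, Meis1 (416), Otx2 (361) and Gata3 (268) lay between percentiles 69.1 and 89.2. Six3, Hsf4 (23.3, the heat shock factor of the fiber) and Sox1 (2.61) were below the reference limit. Six3 was still above the 90% point of the reference genes, percentile 23.5.

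**Figure D3:**
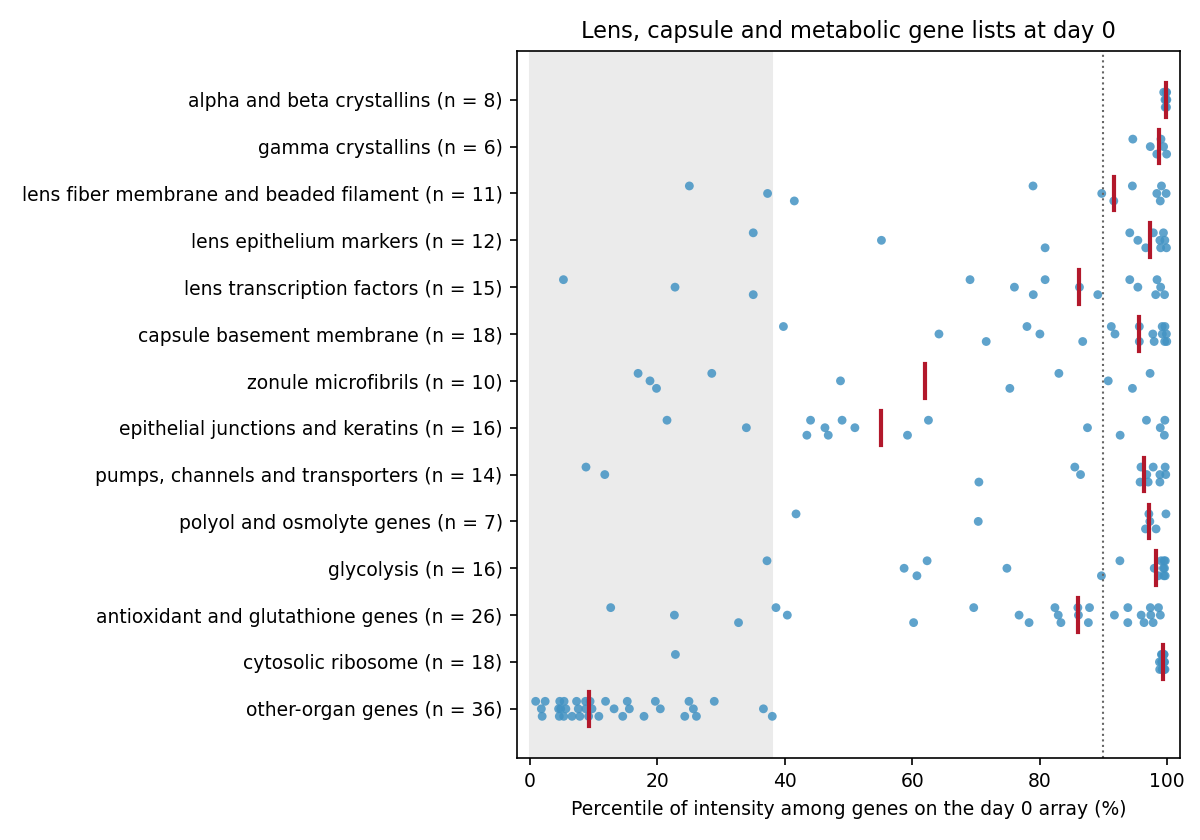
Percentile at day 0 of each measured gene in 13 lists of lens, capsule and upkeep genes and in the list of other-organ genes (points), with the median of each list as a red bar. The dotted line is the 90th percentile and the grey area ends at percentile 38.0, the brightest of the 63 genes of other organs and chemoreceptors.

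Genes of the capsule basement membrane had 12 of 18 measured members in the brightest decile and a median percentile of 95.7. All 18 were brighter than the reference limit, and among the 10 with 1 probe set 6 were bright. Type IV collagen, the network that gives the capsule its strength, was represented by Col4a1 (11634), Col4a5 (6764), Col4a2 (4687), Col4a6 (4644) and Col4a4 (221). The 4 brightest of these chains were in the brightest 1% of genes and Col4a4, at percentile 64.2, stood apart from them. Chains 1 and 2 and chains 5 and 6 are known to pair, and each pair is encoded head to head from a shared promoter region. The second probe set of Col4a1 read 11277, close to the first. Sparc, which binds collagen IV and affects the capsule, had 10231 and 5950.2 on its probe sets, and Nid1 (nidogen 1, which links laminin to collagen) had 6901 and 743. Col4a1 had 3721 and 3468 at 1 W and 2636 at 2 W, so its signal at day 0 was the highest of the 4 arrays. This single day 0 value has no replicate.

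Col4a6 and the members named next, other than Agrn and Col15a1, were chosen after their values were seen. Laminin chains stood at lower percentiles than the 4 bright chains of collagen IV, with Lamb1 at 1527, Lamc1 at 1525, Lama5 at 959, Lama1 at 901 and Lamb2 at 638, percentiles 86.8 to 95.7. Tinagl1 (2547) and Hspg2 (2432, perlecan) were bright. Agrn (296, agrin) and Col15a1 (71.8) were among the dimmest, at percentiles 71.6 and 39.8. The zonule, the fibers that hang the lens from the ciliary body, had 3 of 10 genes bright. They were Mfap2 (2180.2), Fbn1 (1312, fibrillin 1) and Adamtsl4 (861, which is needed for the anchoring of the zonule). Ltbp1 (511), Ltbp2 (347) and Emilin1 (114) were lower. Fbn2, Fbln5, Mfap5 and Eln had 14.9 to 34.8, below the reference limit.

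Junction genes were graded, with 7 of 16 below percentile 50. Cdh1, Ctnnb1 (6308, beta catenin), Cdh2, Ctnna1 (1894) and Tjp1 (1037, ZO-1) were bright, 5 of 16, and Jup followed at 671. The keratins of simple epithelia, Krt18 (127) and Krt8 (103), were at percentiles 51.0 and 46.3, Epcam was at 44.0, Ocln (occludin) at 49.0 and Dsp (desmoplakin) at 21.5. Cdh3 (207, P-cadherin) and Ctnnd1 (181, p120 catenin) stood below the other cadherins and catenins, at percentiles 62.6 and 59.3, and Cldn1 (claudin 1) was at 34.0. Keratins and desmoplakin were thus near or below the middle of the array.

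The lens has no blood supply, and transport, glycolysis and defence against oxidation are known as its main upkeep. Of 14 genes for pumps, channels and transporters 9 were bright. Atp1b3 (8548), Slc2a1 (7375), Slc38a2 (3606), Aqp1 (3580), Atp1b1 (2477), Slc16a1 (2004, a lactate carrier), Car2 (1902), Slc7a5 (1606) and Slc12a2 (1561) were all at percentile 95.8 or higher. Trpv4 and Aqp5 had 8.58 and 5.51, within the range of the chemoreceptors. Of 16 glycolysis genes 10 were bright, with a median percentile of 98.3, led by Pgk1, Slc2a1, Aldoc (6433), Eno1 (5920.4) and Ldha (5626). Pfkl (786, percentile 89.7) was just below the threshold. Hk1 and Hk2 had 341 and 177, and Slc2a3, the neuronal glucose transporter, had 61.9.

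Genes of polyol and osmolyte metabolism had 5 of 7 bright. Akr1b1, which reduces glucose to sorbitol, had 8945, Aldh1a1 had 2803, the inositol carrier Slc5a3 had 2151, the taurine carrier Slc6a6 had 2083 and Nfat5, the factor that responds to hypertonic stress, had 1842. Sord, which converts sorbitol onward, had 284 at percentile 70.4. Antioxidant genes had 10 of 26 bright, led by Gpx4 (3746), Txn1 (3214), Prdx2 (2476), Sod1 (2266) and Gstm1 (2236), while Hmox1 (46.8), Srxn1 (23.2) and Mt1 (9.68) were the dimmest. Genes of basic upkeep were bright in most cases. Cytosolic ribosome genes had 17 of 18 bright with Rpl30 (23.4) as the exception, the respiratory chain had 19 of 25, the proteasome 13 of 19 and the cytoskeleton, annexins and S100 proteins 16 of 19. Actb, Gapdh, Pkm and 13 of the 31 ribosomal genes listed had no probe set that carried their symbol alone and were not ranked.

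Lists of growth factor and signaling genes had medians above the middle of the array. Their bright members are counted here beside the 10% of all genes that are bright by construction. Median percentiles were 62.7 for receptors and feedback genes, 77.8 for TGF-beta and BMP and 67.5 for Notch and Wnt. Of 16 receptors and feedback genes 4 were bright, Pdgfra (2482), Fgfr3 (1940.5), Fgfr2 (1697) and Igf1r (1151), and Fgfr1 had 687. The targets of FGF signaling Etv5 (299), Spry2 (295), Dusp6 (178), Spry1 (113), Spry4 (92.0) and Etv4 (27.5) were at percentiles 25.1 to 71.9. Of 22 genes of the TGF-beta and BMP pathway 4 were bright. Tgfb2, the main TGF-beta ligand of the eye, had 1894, whereas Tgfb3 had 130 and Tgfb1 had 101.9. The receptor Tgfbr1 had 1494, and Id3 (2994) and Id1 (1119), which BMP signals activate, completed the 4. The Smads measured lay between percentiles 76.0 and 88.7 (360 to 732). Tgfb3 and all Smads but Smad4 were chosen after their values were seen. Tgfbi, a matrix protein that TGF-beta induces, was the dimmest of the list at 32.6. In the Notch and Wnt list 5 of 20 were bright, Dkk3, Sfrp1 (2524), Fzd1 (1572), Hes1 (1236) and Hey1 (816).

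Cell cycle genes ranged from the brightest 1% to the dimmest genes of the array. Pcna, the replication clamp, had 1167 and was the 1 bright gene of 17 for replication and mitosis. Its list had a median percentile of 47.1 with 13 of 17 above the reference limit, against 62.0% of all genes. Mki67 had 197 at percentile 61.4. Cdkn1c (4900, p57) and Cdkn1b (1450, p27), which hold fiber and epithelial cells out of the cycle, were bright together with Ccnd2 (1276), 3 of 10 D cyclins and Cdk inhibitors. Cdkn1a (49.1) was below the reference limit and Cdkn2a (0.823) at percentile 1.06 was among the dimmest genes of the array. Immediate-early genes, which cells switch on within minutes of injury, had a median percentile of 41.4. Of 20 measured, 2 were bright, the same share as among all genes. These were Jund (2413) and Ccn2 (967), and Jund alone was at or above the 95th percentile. Ier3 (548), Dusp1 (383) and Jun (344) were next, Fos had 131 at percentile 51.7 and Fosb (9.15), Myc (13.4) and Fosl1 (14.8) were below the reference limit. The same list had median percentiles of 74.6 and 54.8 on the 1 W arrays and 54.6 at 2 W, so day 0 had the lowest median of the 4. The 1 W medians lay further apart than those of day 0 and 1 W replicate 2. By summed intensity day 0 was not the lowest, with 5818 on day 0, 8360 and 5811 at 1 W and 5488 at 2 W. Fos, chosen after its value was seen, had 703 and 182 at 1 W and 173 at 2 W.

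Lists of genes of the fibrous tissue that is known to form in PCO had medians below the middle of the array at day 0. Of 14 fibrillar collagen and fibroblast genes 1 was bright and 6 passed the reference limit, against 10% and 62.0% of all genes. The bright gene was Col1a2 (1768, percentile 96.5), whose second probe set read 860. Its partner chain Col1a1 had 25.4 at percentile 23.9 and 15.2 on its second probe set, so the probe sets for the chains of type I collagen were far apart. Among the 6 genes of this list with 1 probe set none was bright. Postn (528) and Col5a1 (398) were at percentiles 83.7 and 78.1. Col3a1 (52.8), Fn1 (44.5), Col6a3 (42.8) and Col5a2 (28.9) were all below the reference limit. The list had a median percentile of 33.3 on day 0, beside 78.0 and 80.5 for the 1 W pair and 81.6 for 2 W. Fn1, fibronectin, had 979 and 915 at 1 W and 469 at 2 W, and all 3 were above its day 0 value.

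Small leucine-rich proteoglycans, which bind collagen fibrils, were uneven. Of 8 measured, 1 was bright and 4 passed the reference limit, against 10% and 62.0% of all genes. Dcn, decorin, had 46.5 at day 0 (percentile 32.6), below the reference limit, beside 4238 and 506 at 1 W and 2833 at 2 W. Its day 0 percentile lay below all others, whereas its pair at 1 W differed by 13.8 points. Ogn (osteoglycin) had 3043 at day 0 and read 950 to 3043 on its 4 probe sets, so it was bright on each. Lum (468) and Fmod (477) were at percentiles 81.3 and 81.6, and Bgn (48.2) and Aspn (9.68) were dim. Among contractile genes Cald1 (1474) and Tpm4 (944) were the 2 bright of 13, and 5 passed the reference limit, beside the same shares of all genes. Tpm1 was just below the threshold at 798 with 7 probe sets from 1.80 to 798. Acta2 (187) was at percentile 60.1 and Tpm2 (48.8) and Tagln (25.1) were below the reference limit. Of the factors known for epithelial-mesenchymal transition (EMT), none of 6 was bright, against 10% of all genes, and the median percentile was 27.6. Zeb2 (792) and Zeb1 (434) were at percentiles 89.8 and 79.9, whereas Snai1 (52.7), Runx1 (19.9), Twist1 (17.4) and Twist2 (0.996) were below the reference limit.

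Markers of other cell types were read to see what else the sample held. Of 20 photoreceptor genes measured, 9 were bright and 16 were above the reference limit, against 10% and 62.0% of all genes. Sag (rod arrestin) had 2765, Pde6g (the gamma subunit of the rod phosphodiesterase) 2617, Prph2 (a disc rim protein) 2359, Gnat1 (rod transducin) 2323 and Pdc (phosducin) 1811. Of 9 genes of the rod cascade and disc, chosen after their values were seen, 7 were bright with a median percentile of 95.9, while Arr3, Opn1mw and Opn1sw of cones had 30.3, 29.9 and 15.6 and were below the reference limit. Rod genes at percentiles like that of Pdgfra (97.9) thus stood in a sample labeled as LECs. In bulk samples fewer cells of a type and less RNA per cell cannot be told apart.

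Sag had 344 and 992 at 1 W and 211 at 2 W, and Pdc had 93.6 and 766 at 1 W and 148 at 2 W. Day 0 was the highest array for both, and 1 W replicate 2 was above replicate 1. The 20 genes together summed to an intensity of 19292 on day 0, of 1713 and 7187 on the 1 W arrays and of 1783 on the 2 W array. Among the 1422 genes of the brightest decile, 19 differed by over 10 points between the 1 W arrays. All 19 were below percentile 90 on at least 1 of these arrays, where a percentile has more room to move. All 9 bright photoreceptor genes were among these 19, with Crygd, Crygc and Crygb. In the photoreceptor genes replicate 2 was the higher, in the crystallins replicate 1. The remaining 7 were Lpl, Igfbp5, Aqp4, Colgalt2, Spetex2l2, RT1-T24-4 and Kcne4. How much of any other value at day 0 came with the rod signal was not tested.

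Of 14 markers of bipolar, amacrine, ganglion and Müller cells, 1 was bright, Glul (2310, glutamine synthetase, which many tissues use), and 11 passed the reference limit, which 62.0% of all genes passed. Their median percentile was 46.9. Rlbp1 had 283 and Slc1a3 had 149.99, and Prkca (24.97), Grm6 (21.9) and Pou4f1 (8.39) were below the reference limit. Of 10 genes of pigment epithelium and pigment cells, Tyrp1 was bright (1301), Pmel (606) and Dct (455) were at percentiles 85.8 and 80.7, and Rpe65 (54.6), Mlana (51.0) and Lrat (1.88) were below the limit. Their summed intensity on day 0 was 2846, beside 14851 and 5254 for the 1 W pair and 6244 for 2 W. Rod and pigment genes were thus ordered differently over the arrays. Neuronal genes had 1 of 10 bright (Uchl1, 1485) and 5 above the reference limit, against 10% and 62.0% of all genes. Snap25 had 532, Syp 207, Nefh 146 and Nefl 77.1. Myelin genes had 1 of 7 bright (Pmp22, 5237) and 4 above the limit, beside the same shares of all genes, and a median percentile of 59.5. Mbp had 469, Prx 439 and Cnp 182, while S100b (48.7), Mag (20.1) and Sox10 (1.61), a factor of Schwann and other cells, were below the limit.

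Blood and surface cells were dim. None of 18 macrophage genes was bright. Their median percentile was 29.1, with Lyz2 (235) and Cd74 (119) the highest and Itgam (5.98) and Cd163 (8.85) the lowest, and the 1 W and 2 W arrays had medians of 55.2, 49.7 and 47.6. None of 9 lymphocyte, neutrophil and mast cell genes passed the reference limit, nor did any of 11 skeletal muscle genes. Of 9 endothelial genes 4 passed it, against 62.0% of all genes, and Pecam1 had 9.89. Hbb, beta globin, had 517 at percentile 83.3 with 113 and 142 at 1 W and 131 at 2 W, while Alas2, Slc4a1 and Ahsp of red cells had 2.44 to 15.5. In the cornea list Col8a2 (777, percentile 89.5) was the highest of 9, and the corneal keratin Krt12 had 18.3. None of the listed immune, muscle, endothelial, red cell and cornea genes was bright, although these lists are short. Myh1, a myosin of skeletal muscle outside the list and chosen after its value was seen, had 1828 at percentile 96.6 on the brightest of its 5 probe sets.

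**Figure D4:**
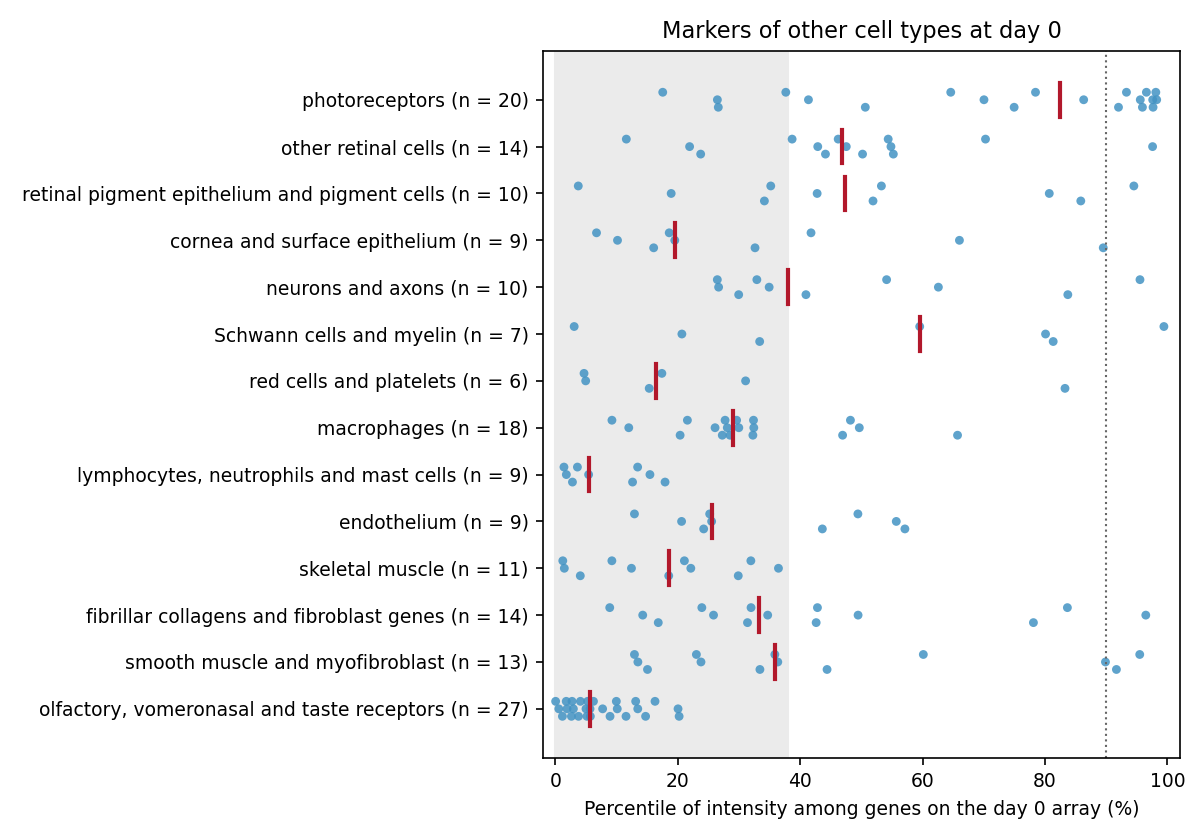
Percentile at day 0 of each measured gene in 14 lists of markers of other cell types and of chemoreceptors (points), with the median of each list as a red bar. The dotted line is the 90th percentile, the grey area ends at the reference limit (percentile 38.0), and 9 of the 20 photoreceptor genes lie right of the dotted line.

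The medians of the lists on the 4 arrays showed which features were shared with the later samples. Alpha and beta crystallins had a median of 99.9 on each array and glycolysis 98.3 to 98.8. Lens epithelium markers had 97.3 on day 0, 93.9 and 92.5 at 1 W and 88.2 on the 2 W array, and basement membrane genes 95.7, 91.0, 92.7 and 88.1. Photoreceptor genes had 82.4, 42.4, 66.6 and 44.0. For these 3 lists day 0 had the highest median of the 4. Contractile genes had 35.9 on day 0, 87.3 and 62.5 at 1 W and 75.2 on the 2 W array, so day 0 was the lowest, and their pair at 1 W differed by nearly as much as replicate 2 differed from day 0. Of the 1422 genes of the brightest decile at day 0, 83.0% and 84.5% were also in it on the 1 W arrays and 75.7% at 2 W. With 1 array at day 0 and 1 at 2 W these orders have no test. Each gene was read on its brightest probe set at day 0, which can raise day 0 against the other arrays. With the probe set of the highest mean over the 4 arrays in its place, the 44 list medians at day 0 shifted by at most 1.1 points. The effect on the medians of the other arrays was not tested.

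**Figure D5:**
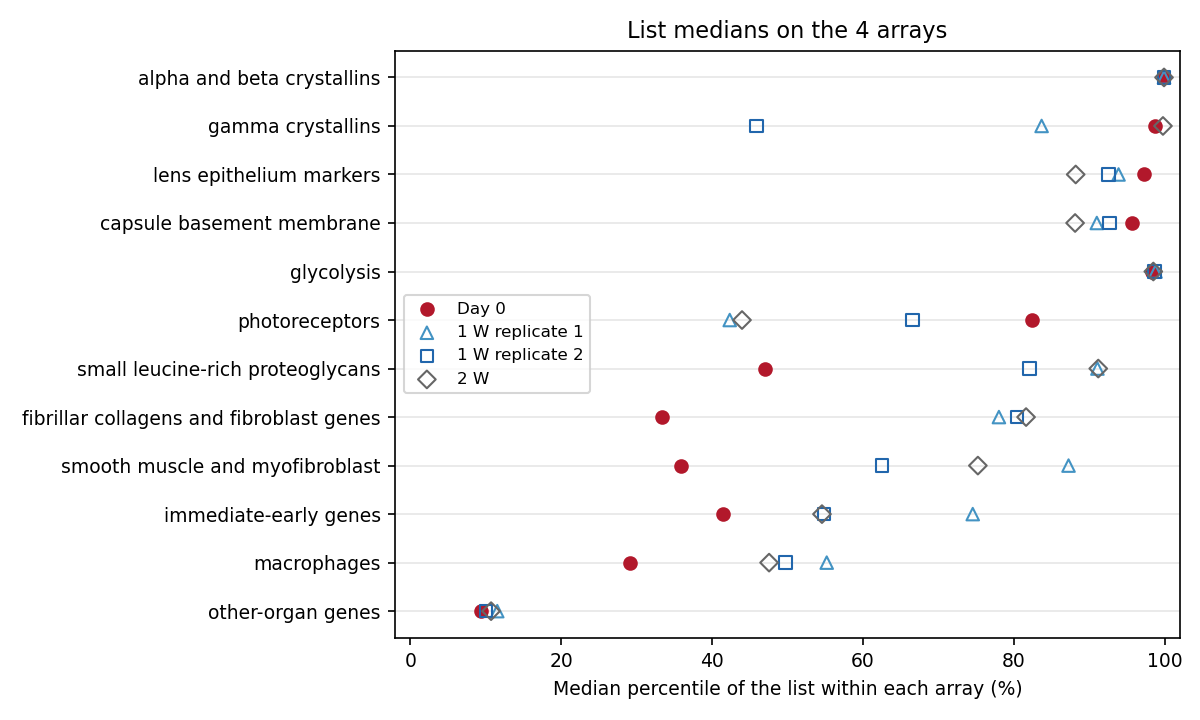
Median percentile of 12 gene lists within each of the 4 arrays, with day 0 as filled circles, the 1 W replicates as triangles and squares and 2 W as diamonds. Day 0 lies highest for epithelium, basement membrane and photoreceptor genes and lowest for fibroblast, contractile, proteoglycan, immediate-early and macrophage genes. It is also lowest, by small margins, for glycolysis, alpha and beta crystallins and other-organ genes (9.32 against 10.03 to 11.53 on the other arrays). Each gene is read on the probe set that was brightest at day 0.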

How the data were processed

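RNA of lens capsules with LECs was hybridized to 4 arrays. The authors scanned the arrays with Affymetrix Command Console, derived probe set values in Expression Console, which the submitters' processing notes also name, and deposited 31099 linear intensities per array. How probe signals were summarized and scaled is not stated, nor is it stated if the values deposited had already passed the normalization that the methods name for each chip.

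From these intensities ranks were computed in Python 3.11.15 (numpy 2.4.6, pandas 2.3.3). The 57 control probe sets were left out. Gene symbols came from the annotation of the array, and 14204 of the 14217 symbols matched the RefSeq table of GRCr8. The brightest probe set per symbol at day 0 was ranked, and the same probe set was used on the other arrays. Of 14217 genes, 4525 had several probe sets, and taking the brightest favors these genes, with 12.8% in the brightest decile against 8.69% of genes with 1 probe set. No array scaling, filter or pseudocount was applied. Groups came from the labels, every column of values was used, and the ranking was tested on simulated data. All 44 gene lists (686 genes written, 616 measured) and the genes described were chosen with earlier results of these data known, and 30 list genes had only probe sets shared with another symbol. The rule for genes that could be named took the 40 brightest, the 6 markers, all measured members of lists of at most 16 measured genes and the 5 brightest and 3 dimmest of longer lists, with genes the paper names from its arrays. Members that the text leaves unnamed are in the counts. Alternatives were the percentile threshold, the rule for several probe sets, the ranking among all probe sets and the exclusion of probe sets that may bind several transcripts (name suffixes a, s and x). Each array's number of capsules is not known, and their number limits the precision.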

Additional observations from a re-analysis of the deposited data

Results flagged for a closer look

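Probe sets without a gene symbol took no part in the ranking of genes. At day 0, 2711 of these 9780 (27.7%) were brighter than each of the 63 genes of other organs and chemoreceptors. Their median percentile among all 31042 probe sets was 34.5, against 58.4 for probe sets with 1 symbol. The brightest probe set of the array, at 14184, was one of them, and they made up 7 of the brightest 50 and 33 of the brightest 310 probe sets. Another 55 of these 310 carried several symbols. The transcripts behind these probe sets are not named here.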

How the results depend on the processing

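Moving the threshold to the 85th or 95th percentile, averaging the probe sets of a gene, choosing the probe set by its mean over the 4 arrays, ranking among all probe sets or leaving out probe sets with the suffixes a, s and x kept the count of bright members within 1.5 times for each of the 10 lists counted, with 1 exception. At the 95th percentile 1 immediate-early gene was left in place of 2. Leaving out the suffixed probe sets left 4 gamma crystallins measured in place of 6, all 4 of them bright. With only genes that have 1 probe set the count was 3 (of 6 measured) in place of 9 for lens epithelium markers, 6 (of 10) in place of 12 for the basement membrane, 1 (of 14) in place of 2 for immediate-early genes and 0 (of 6) in place of 1 for fibrillar collagens, a setting that also leaves fewer genes. Among named genes, Actg1 moved from percentile 99.8 to 52.9 without the suffixed probe sets, and Tpm1 from 89.9 to 69.5 with the mean of its probe sets. Without the suffixed probe sets 3 named genes moved by over 10 points. The median of the lipid and cholesterol genes fell by 12.6 points there, the largest shift of a list median at that setting. Ranking among all probe sets put each of the 44 list medians higher, 17 of them by over 10 points and at most by 14.9. This ranking holds both the probe sets without a symbol and the further probe sets of each gene, and their parts were not tested apart. No paired analysis was possible because the 1 W group alone has numbered replicates. With 1 array at day 0 no value here has an error of its own, the rod and pigment genes differ between arrays of 1 group, and dim genes rank within the spread of the 1 W pair.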

Other observations

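Lists that no comparison above used gave further values for day 0. Of 16 genes for lysosomes, autophagy and the clearance of organelles 10 were at or above the 90th percentile, led by Ctsl (8917), Ctsb (3143, cathepsin B) and Bnip3l (3083, a receptor for the removal of mitochondria), with Gabarap (2839.9), Lamp2 (2592) and Bnip3 (2424). Tdrd7, an RNA granule protein needed for a clear lens, had 1404. Atg7 and Atg5, which conjugate autophagy proteins, had 199 and 144 at percentiles 61.6 and 53.7. Of 13 chaperones and genes of the unfolded protein response 8 were as bright, led by Hsp90ab1 (4249.7), Pdia3 (4219.7), Canx (3230) and Hspa5 (3056). Ddit3, which prolonged stress induces, had 107 at percentile 47.1, and the heat shock genes Hspb1 (166) and Hspa1a (134) were at percentiles 57.1 and 52.3.

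Of 11 lipid genes 5 were at or above the 90th percentile, Clu (9740.2), Fabp5 (5226), Apoe (2586), Dhcr7 (991) and Insig1 (950.2). The value of Clu came from a probe set with the suffix a, and its other probe set read 148. Without the suffixed probe sets the median of this list fell by 12.6 points. Lss (324), Sqle (278) and Fdft1 (182), enzymes of cholesterol synthesis, lay at percentiles 59.5 to 73.7. Of 11 complement and MHC class I genes 2 were as bright, Cd59b (2794), which protects cells from complement, and B2m (2671). C3, the central complement protein, had 10.4 at percentile 13.4. Of 8 genes commonly used as references 5 were as bright, from Eef1a1 (8935) down to Tbp (126), the dimmest of the 8 at percentile 50.9.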
